A study of Mus musculus with 16 samples.

Results

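Neuronal activity immediate early genes are the first genes that a neuron transcribes when it is excited. The set described here holds 10 of them, Fos, Fosb, Junb, Egr1, Egr2, Nr4a1, Npas4, Arc, Ier2 and Dusp1, matched by gene symbol among the 55487 genes of a CPM table (reads on a gene per 1000000 reads on all genes of the sample). Bulk RNA-Seq of the cortex of 16 mice was used to ask whether the brain response to a peripheral inflammatory stimulus differs by time of day (TOD). All mice were wild-type C57Bl6 males, 2 months old. They received i.p. injections of lipopolysaccharide (LPS, a bacterial cell wall component that triggers inflammation) at 2 mg/kg, or of PBS as the control, on 2 days in a row, and the cortex was taken on the day after the second injection. Injections were given at zeitgeber time 1 (ZT1, shortly after lights-on) or ZT13 (shortly after lights-off). The 4 groups were ZT1 PBS and ZT13 PBS with 3 mice each, and ZT1 LPS and ZT13 LPS with 5 mice each.

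In a resting neuron these genes are nearly silent. Calcium entry through synaptic receptors and channels activates kinases that phosphorylate CREB and the serum response factor complex, which are already bound at the promoters, so that transcription starts within minutes and needs no new protein. Most of the products are transcription factors that switch on later genes, while Arc acts at the synapse and Dusp1 turns the kinase signal off. Because the mRNAs are short-lived, their level in a dissected cortex is known to follow the recent activity and handling of the animal. CREB binds the cAMP response element (CRE) and the serum response factor binds the CArG box.

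The windows around the transcription start sites of 5 members are shown as examples. Whether the marked letters have a part in the levels after LPS was not tested. Each window runs from 250 bases before to 50 bases after a start site in RefSeq on GRCm38.p6 and is written 5′ to 3′ on the strand of the gene. Capitals mark matches, on either strand, to the CRE half-site TGACG, to the full CRE TGACGTCA that contains it, and to the CArG box.
Fos, chr12:85473640-85473939, plus strand: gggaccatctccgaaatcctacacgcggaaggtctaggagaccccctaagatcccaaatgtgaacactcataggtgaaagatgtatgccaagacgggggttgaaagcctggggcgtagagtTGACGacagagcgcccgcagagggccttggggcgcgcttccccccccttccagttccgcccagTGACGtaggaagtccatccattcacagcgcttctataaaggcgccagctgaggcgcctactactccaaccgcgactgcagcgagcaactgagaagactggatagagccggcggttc
Egr2, chr10:67537619-67537918, plus strand: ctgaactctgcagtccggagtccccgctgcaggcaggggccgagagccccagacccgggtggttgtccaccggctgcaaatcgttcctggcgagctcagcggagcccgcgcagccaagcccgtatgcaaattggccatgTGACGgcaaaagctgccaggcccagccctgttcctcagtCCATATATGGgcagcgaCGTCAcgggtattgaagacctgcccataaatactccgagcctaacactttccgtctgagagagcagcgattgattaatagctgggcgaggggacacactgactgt
Nr4a1, chr15:101266596-101266895, plus strand: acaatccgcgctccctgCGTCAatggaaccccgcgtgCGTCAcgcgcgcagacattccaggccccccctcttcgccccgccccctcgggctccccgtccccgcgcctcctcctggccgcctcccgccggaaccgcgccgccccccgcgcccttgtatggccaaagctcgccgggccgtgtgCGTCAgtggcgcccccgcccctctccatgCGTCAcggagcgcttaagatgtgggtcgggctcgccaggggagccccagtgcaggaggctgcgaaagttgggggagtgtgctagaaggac
Npas4, chr19:4989922-4990221, minus strand: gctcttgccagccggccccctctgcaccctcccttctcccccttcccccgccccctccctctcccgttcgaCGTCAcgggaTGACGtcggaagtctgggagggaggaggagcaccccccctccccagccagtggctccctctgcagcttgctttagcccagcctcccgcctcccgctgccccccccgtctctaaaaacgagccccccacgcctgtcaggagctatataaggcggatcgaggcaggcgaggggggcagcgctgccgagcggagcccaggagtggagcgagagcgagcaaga
Dusp1, chr17:26508423-26508722, minus strand: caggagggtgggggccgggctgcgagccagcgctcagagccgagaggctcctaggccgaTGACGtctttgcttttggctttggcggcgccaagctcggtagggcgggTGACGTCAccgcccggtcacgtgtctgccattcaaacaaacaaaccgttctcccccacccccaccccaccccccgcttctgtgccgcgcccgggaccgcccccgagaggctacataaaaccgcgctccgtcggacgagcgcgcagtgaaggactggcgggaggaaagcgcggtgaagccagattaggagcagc

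Windows were searched for 7 of the 10 members, 11 windows in all. No window of Arc or Ier2 was found. Egr1 was not searched, because chr18 was left out for the members, though not for the shares over all windows. Of the 11 windows, 9 held TGACG, against 20.8% of all 32851 RefSeq windows of this length, and every one of the 7 members had it at least once. Egr2 has 5 windows, of which 3 overlap each other closely and hold it and the other 2 do not. In Fos the half-sites lay at positions -129 and -66 relative to the start site, and in Fosb and Junb at -60 and -106. In Nr4a1 there were 4, the nearest at -40. Dusp1 alone held the full CRE, at -143, which was present in 1.79% of all windows. The CArG box, found in 1.63% of all windows, was matched in Egr2 only among the 7 members searched, at -72 in the window shown. Sites more than 250 bases before a start site were not searched. Of the further motifs searched, the EGR site GCGTGGGCG (0.612% of windows) and the AP-1 site TGANTCA (7.81%) were matched in none of the 11 windows, and the E-box CACGTG (7.15%) was matched in Dusp1 and in 1 window of Egr2. A match is a string of letters and not a measured binding site.

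In the GENCODE M21 annotation of GRCm38, the members lie Fos at chr12:85473890-85477273, Fosb at chr7:19302696-19310051, Junb at chr8:84974484-84978718, Egr1 at chr18:34859823-34864984, Egr2 at chr10:67535475-67542188, Nr4a1 at chr15:101254269-101274795, Npas4 at chr19:4984355-4990316, Arc at chr15:74669083-74672570, Ier2 at chr8:84661331-84662852 and Dusp1 at chr17:26505590-26562128. Values are given per gene, so none belongs to a single exon.

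Depth was 20251840 to 29112758 reads on genes per sample. All 10 members passed the filter on low values (1 CPM or more in 3 or more of the samples), which left 18859 genes. Gfap, the astrocyte filament gene used to check the treatment labels, ranged from 111 to 123 CPM over the 6 libraries titled PBS and from 572 to 1134 CPM over the 10 titled LPS. A separate treatment field contradicted the titles for 12 of the 16 samples, and the titles were used. In bulk tissue, fewer cells of a type and less RNA per cell cannot be told apart. One control mouse stood apart from its group in these genes. ZT13 PBS replicate 1 was the lowest of its group in 9 of the 10 members, at 20.3% to 56.7% of the mean of the other 2 mice. The log2 differences of the members between LPS and PBS at ZT13 are given with and without it. It was singled out by the values of these members, so counts of members without it follow in part from that choice. The shares of all genes printed beside those counts do not rest on that choice. The group means as percentages of PBS and the permutation tests use all mice. Over all genes the median absolute deviation of that mouse from the group mean was 0.062 on the log2 scale, within the 0.059 to 0.066 of the PBS mice. Its description in the labels carries a suffix that no other sample has, and the labels do not say what it means.

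The first comparison asked how these genes stood after LPS in the morning. All 10 had a lower mean in LPS than in PBS at ZT1, and 8 fell by the test: Fos, Arc, Egr1, Egr2, Nr4a1, Npas4, Ier2 and Dusp1. Group means in LPS were 53.4% (Npas4) to 83.4% (Junb) of those in PBS. Over all genes, 5.15% were called lower and 16.2% were called in either direction (limma adjusted p under 0.05), and 40.9% had a fold change below 0. All 10 members had an unadjusted p under 0.05, against 30.3% of all genes. The median difference on the log2(CPM + 0.5) scale was -0.56 over the members and 0.04 over all genes.

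Fos and FosB pair with Jun proteins to form the transcription factor AP-1. Fos was at 67.7, 75.3 and 87.0 CPM in the ZT1 PBS mice and at 40.8, 51.7, 35.7, 31.7 and 53.7 CPM in the ZT1 LPS mice. Every LPS mouse was below every PBS mouse, and the log2 difference was -0.86 (SE 0.16, limma adjusted p = 0.00359). Fosb was at 26.8, 30.02 and 37.3 CPM in PBS and at 17.9, 22.6, 21.8, 20.4 and 36.7 CPM in LPS. Its groups overlapped through LPS replicate 5, which was near the top of the PBS range, and the difference of -0.42 did not pass (adjusted p = 0.162). Junb encodes a Jun partner that also restrains AP-1. It was at 137, 132 and 171 CPM in PBS and at 117, 143, 105, 108 and 139 CPM in LPS, overlapping, with a difference of -0.26 (adjusted p = 0.141). The annotated span of Junb shares 351 bases with the antisense gene Prdx2 (up to 93.4 CPM), and whether counting used strand is not given in the sources used here.

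The zinc finger factors Egr1 and Egr2 were both lower. Egr1 was at 515, 546 and 651 CPM in ZT1 PBS and at 308, 429, 440, 366 and 542 CPM in ZT1 LPS. The groups met at the edge, where LPS replicate 5 lay between the PBS mice, and the difference of -0.47 (SE 0.15) was just past the threshold (adjusted p = 0.0490). Egr2, which acts in neurons and in myelinating Schwann cells, was at 18.4, 24.9 and 35.8 CPM in PBS and at 12.7, 19.7, 13.3, 10.8 and 18.3 CPM in LPS. One LPS mouse exceeded the lowest PBS mouse, and the difference was -0.78 (SE 0.22, adjusted p = 0.0319). Nr4a1, an orphan nuclear receptor, was at 193, 191 and 248 CPM in PBS and at 127, 135, 117, 125 and 208 CPM in LPS. Here 4 of the 5 LPS mice lay close together below the PBS mice and replicate 5 lay among them, with a difference of -0.58 (SE 0.16, adjusted p = 0.0309).

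Npas4, a factor made in neurons in response to calcium, had the largest log2 difference of the members at ZT1. It was at 75.4, 56.3 and 52.0 CPM in PBS and at 26.9, 36.1, 30.1, 24.9 and 45.7 CPM in LPS. The groups did not overlap, and the difference was -0.91 (SE 0.18, adjusted p = 0.00542). Arc, whose protein moves glutamate receptors off the synaptic membrane, was at 561, 441 and 667 CPM in PBS and at 239, 346, 266, 281 and 456 CPM in LPS. Only LPS replicate 5 reached the lowest PBS mouse, and the difference was -0.83 (SE 0.19, adjusted p = 0.0115).

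The remaining members, Ier2 and Dusp1, varied little between mice. Ier2, a short nuclear protein of the early growth factor response, was at 19.9, 18.3 and 18.8 CPM in PBS and at 14.2, 16.1, 12.2, 12.7 and 15.4 CPM in LPS (difference -0.42, SE 0.09, adjusted p = 0.0106). Dusp1, the phosphatase that switches off MAP kinases, was at 72.3, 59.5 and 72.3 CPM in PBS and at 45.5, 48.2, 39.2, 43.3 and 57.5 CPM in LPS (difference -0.54, SE 0.11, adjusted p = 0.00611). Neither gene overlapped between groups. The annotated span of Dusp1 shares 640 bases with the antisense gene Ergic1 (up to 121 CPM). In all, 4 members (Fos, Npas4, Ier2 and Dusp1) did not overlap at ZT1, against 8.41% of all genes that were lower in LPS without overlap. For these 4 a two-sided exact permutation test gave p = 0.0357, the smallest value that 3 against 5 mice allow. Over the 40 exact tests of 10 members in 4 comparisons, the lowest value after Benjamini-Hochberg adjustment was 0.176.

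The number called at ZT1 depended on the fit. With all genes above 0 tested it was 0, with no intensity trend 5, and with all 16 samples fitted together 2, while every member kept a lower mean in LPS. Over all genes, these fits called 438 of 38565, 544 of 18859 and 1339 of 18859 lower. The member count was 4 without PBS replicate 1 or 3, 5 without PBS replicate 2 or without LPS replicate 1, 3 or 4, and 9 without LPS replicate 5. When 1 mouse was left out, 468 to 1294 of all genes were called lower. Of the 3061 genes called, 2089 were higher and 972 lower. That split became 1656 and 1390 under median-of-ratios scaling and 1493 and 1426 under quantile normalization.

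**Figure D1:**
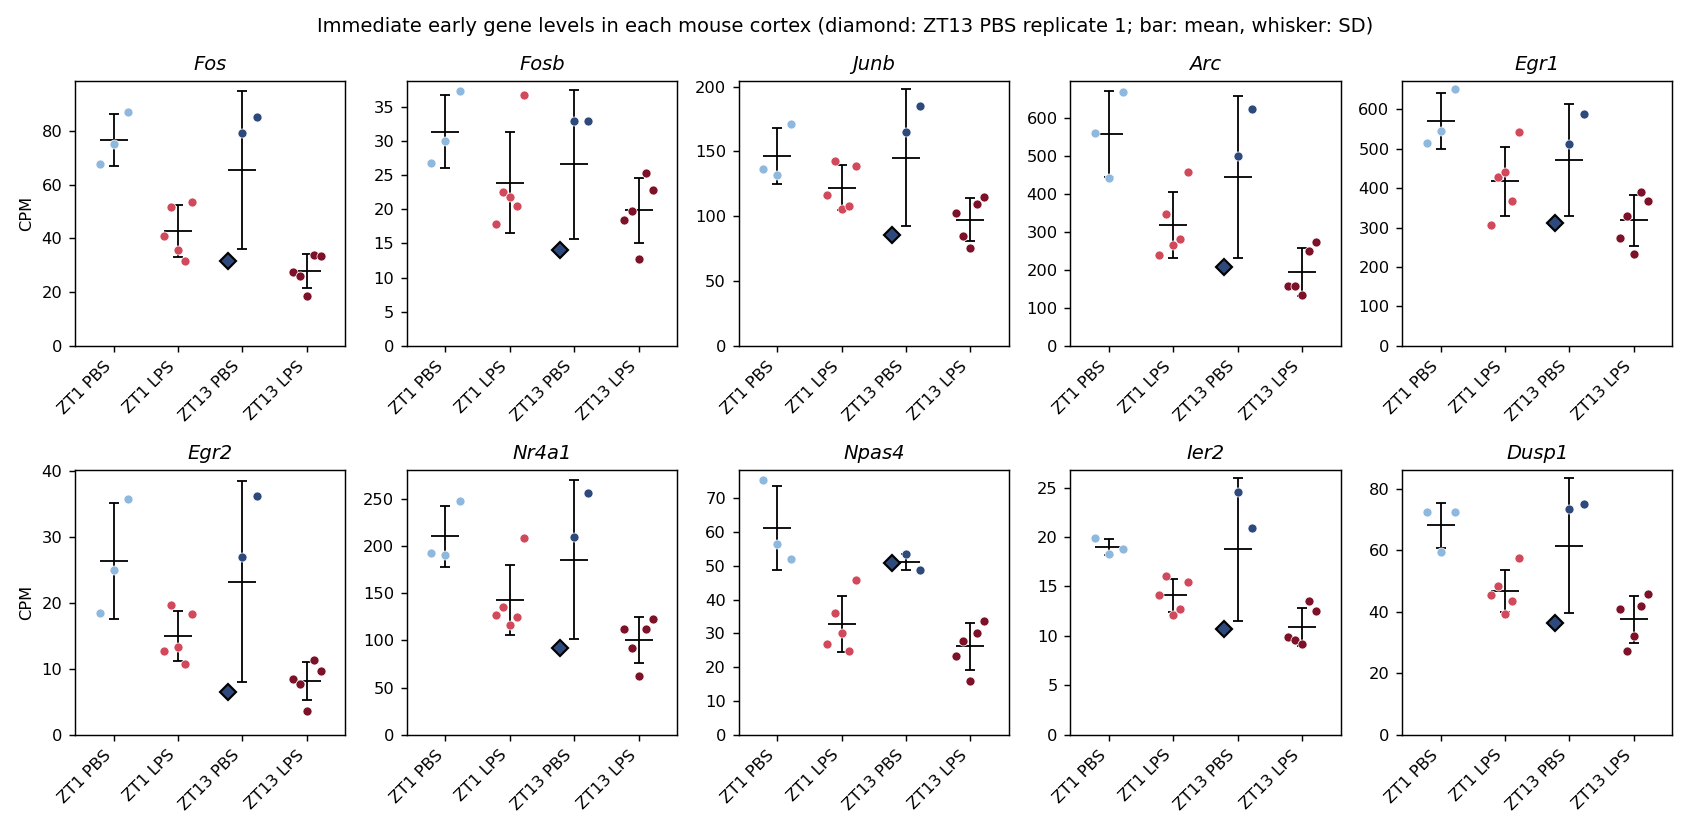
CPM of each member (vertical axis, from 0) in each mouse of the 4 groups (horizontal axis), with a bar for the group mean and whiskers for the SD. The black-edged diamond is ZT13 PBS replicate 1, which sits inside the range of ZT13 LPS for 9 members and among the other controls for Npas4 (50.8 CPM).

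The second comparison was the same at ZT13. All 10 members again had a lower mean in LPS, from 35.0% (Egr2) to 74.6% (Fosb) of PBS, and 7 fell by the test: Fos, Arc, Egr1, Nr4a1, Npas4, Ier2 and Dusp1. Over all genes, 9.4% were called lower and 28.6% in either direction, and 39.8% had a fold change below 0. At an unadjusted p under 0.05 there were 9 members, against 38.3% of all genes. The median difference was -0.75 over the members and 0.05 over all genes. Without ZT13 PBS replicate 1 all 10 were called lower, against 7.87% of all genes, and the member median was -1.02. This count follows in part from how that mouse was chosen.

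Among the AP-1 genes, Fos was at 31.7, 79.4 and 85.2 CPM in ZT13 PBS and at 27.5, 25.9, 18.7, 33.8 and 33.6 CPM in ZT13 LPS. The first control lay among the LPS mice and the other controls lay far above them. The log2 difference was -1.12 (SE 0.27, limma adjusted p = 0.00591) and became -1.57 (SE 0.17, adjusted p = 2.36e-05) without that control. Fosb was at 14.0, 32.9 and 32.9 CPM in PBS and at 18.5, 19.8, 12.7, 25.4 and 22.9 CPM in LPS, with a difference of -0.35 (adjusted p = 0.345) that became -0.75 (adjusted p = 0.0107). Junb was at 85.3, 165 and 185 CPM in PBS and at 102, 85.0, 75.3, 110 and 115 CPM in LPS, with a difference of -0.51 (adjusted p = 0.0750) that became -0.86 (adjusted p = 3.73e-04). Both genes overlapped with that control and did not overlap without it.

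Egr2 had the largest difference at ZT13 and the widest control group. It was at 6.41, 27.0 and 36.2 CPM in PBS and at 8.46, 7.61, 3.61, 11.3 and 9.63 CPM in LPS. The difference of -1.23 (SE 0.44) narrowly missed the threshold (adjusted p = 0.0517), and without PBS replicate 1 it was -1.97 (SE 0.30, adjusted p = 3.66e-04). Egr1 was at 312, 512 and 588 CPM in PBS and at 274, 330, 234, 390.1 and 367 CPM in LPS (difference -0.53, adjusted p = 0.0452). Nr4a1 was at 91.6, 210 and 256 CPM in PBS and at 112, 92.0, 61.9, 112 and 123 CPM in LPS (difference -0.80, adjusted p = 0.0437). In both the 2 higher controls were above every LPS mouse, and without the low one the differences were -0.81 and -1.25.

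Npas4 was the exception in that mouse. It was at 50.8, 53.5 and 48.8 CPM in ZT13 PBS, the narrowest control group of any member at ZT13 (51.0 ± 2.37 CPM, SD, n = 3, or 0.066 on the log2 scale). In ZT13 LPS it was at 23.3, 27.8, 15.8, 30.2 and 33.6 CPM. PBS replicate 1 was at 99.3% of the mean of the other controls, and the groups did not overlap. The difference was -0.99 (SE 0.17, adjusted p = 6.43e-04), was -0.997 without that mouse, and Npas4 alone reached the smallest exact permutation p at ZT13 (0.0357). It was also the single member without overlap at ZT13, against 10.3% of all genes. With PBS replicate 1 left out, all 10 members were without overlap, against 13.3% of all genes. That mouse was singled out by the values of these members, so this count is no test of them.

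The synaptic gene Arc was at 209, 501 and 623 CPM in ZT13 PBS and at 157, 159, 133, 250.1 and 274 CPM in ZT13 LPS (difference -1.10, SE 0.30, adjusted p = 0.0136). Ier2 was at 10.7, 24.6 and 21.0 CPM in PBS and at 9.88, 9.58, 9.14, 13.5 and 12.5 CPM in LPS (difference -0.69, adjusted p = 0.0244). Dusp1 was at 36.2, 73.3 and 74.9 CPM in PBS and at 40.8, 27.3, 32.0, 41.9 and 45.9 CPM in LPS (difference -0.65, adjusted p = 0.0335). In each of the 3, the low control lay within the LPS range and the other controls lay above it. Without it the differences were -1.58, -1.04 and -0.99. The count of members called at ZT13 was 2 without PBS replicate 2 or 3, 3 without LPS replicate 2 or 3, 4 without LPS replicate 1 and 9 without LPS replicate 5. When 1 mouse was left out, 1243 to 1869 of all genes were called lower. The member count was 1 with all genes above 0 tested, where 1310 of 38565 genes were called lower. It was 2 with no intensity trend, where 1334 of 18859 were. The 5401 genes called at ZT13 were 3629 higher and 1772 lower, 2842 and 2831 under median-of-ratios scaling, and 2540 and 3106 under quantile normalization, under which the median log2 difference of all genes was -0.06 in place of 0.05. Every member stayed below 0 under both.

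Averaged over both times, in a fit that reuses the samples of the comparisons above, 9 members fell, against 12.3% of all genes called lower and 36.9% called in either direction. The same number had an unadjusted p under 0.05, against 45.2% of all genes. Fosb was the exception (log2 difference -0.38, limma adjusted p = 0.112). The largest differences were those of Egr2 (-1.01, SE 0.29, adjusted p = 0.0104), Fos (-0.99, SE 0.18, adjusted p = 2.64e-04), Arc (-0.97, SE 0.21, adjusted p = 0.00124) and Npas4 (-0.95, SE 0.14, adjusted p = 3.16e-05). Nr4a1 (-0.69), Dusp1 (-0.60), Ier2 (-0.56) and Egr1 (-0.50) were intermediate and Junb (-0.39) was small. Only Npas4 had all 10 LPS mice below all 6 PBS mice, against 3.64% of all genes. With ZT13 PBS replicate 1 left out, all 10 members were called, against 11.4% of genes, and 4 were without overlap, against 4.13%. Both counts follow in part from how that mouse was chosen. The calls split into 4626 higher and 2329 lower genes, 3425 and 3522 under median-of-ratios scaling, and 2993 and 4400 under quantile normalization.

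**Figure D2:**
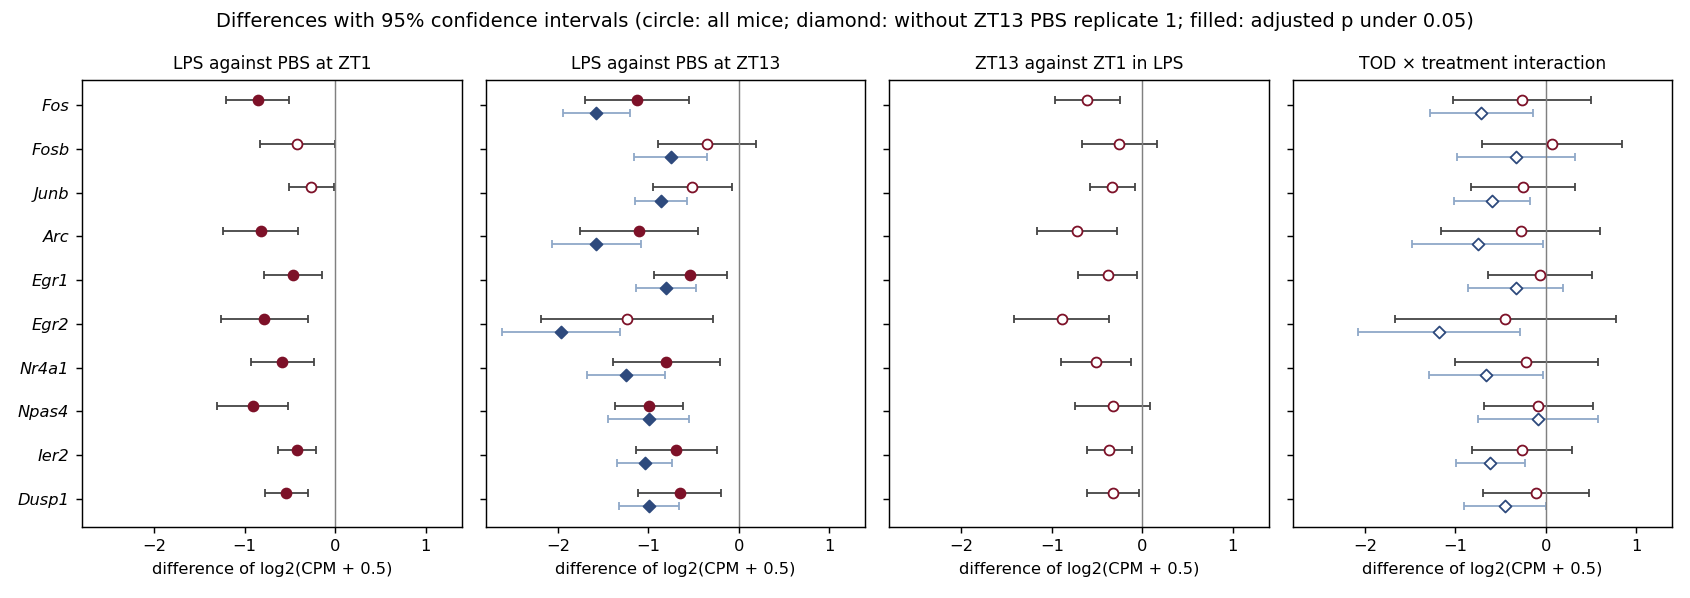
Differences of log2(CPM + 0.5) with 95% confidence intervals (horizontal axis) for the 10 members in 4 comparisons. Circles use all mice and diamonds leave out ZT13 PBS replicate 1, and filled symbols have an adjusted p under 0.05. Leaving out that control moves every member but Npas4 to the left at ZT13 and in the interaction, where no symbol is filled.

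The third comparison set the LPS groups side by side, as the study did to ask whether the evening response differs. All 10 members had a lower mean in ZT13 LPS than in ZT1 LPS, from 54.3% (Egr2) to 83.0% (Fosb), but none passed the test across all genes (smallest limma adjusted p = 0.191, for Fos and Egr2). Over all genes, 4 were called, 0.0212%, of which 2 were higher and 2 lower. That number was 345 (317 higher and 28 lower) without ZT1 LPS replicate 1, where no member was called either, and 122 (114 and 8) in a single fit of all 16 samples. At an unadjusted p under 0.05 there were 8 members, against 10.6% of all genes, and 44.4% of all genes were below 0. The log2 differences were largest for Egr2 (-0.89, SE 0.24), Arc (-0.73, SE 0.21) and Fos (-0.61, SE 0.17) and smallest for Fosb (-0.25, SE 0.19).

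The LPS groups overlapped in every member, while 0.408% of all genes were lower at ZT13 without overlap. For Fos, the ZT13 LPS mice lay between 18.7 and 33.8 CPM and the ZT1 LPS mice between 31.7 and 53.7 CPM. For Egr2 the ranges were 3.61 to 11.3 and 10.8 to 19.7 CPM, and for Arc 133 to 274 and 239 to 456 CPM. ZT13 LPS replicate 3 was the lowest of its group in 9 of the 10 members, and ZT1 LPS replicate 5 the highest of its group in 7. The two-sided exact permutation test, which cannot go below 0.0079 with 5 against 5 mice, gave p = 0.0159 for Egr2 and Nr4a1, 0.0317 for Fos, 0.0397 for Ier2 and 0.0476 for Arc.

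Among the controls, ZT13 against ZT1, none of the members was called by limma, against 0.52% of all genes, and none had an unadjusted p under 0.05, against 13.5%. All 10 differences were below 0, from -0.08 (Junb) to -0.45 (Arc), against 50.2% of genes, and no member was without overlap, against 9.21%. When ZT13 PBS replicate 1 was left out, the differences of 8 members were above 0, with Egr1 at -0.05 and Npas4 at -0.24 the exceptions, and none was called, against 0.0689% of genes called lower. With 3 against 3 mice an exact permutation p cannot go below 0.1.

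The TOD × treatment interaction asked whether the LPS difference at ZT13 departs from that at ZT1. No member was called by limma, against 0.159% of all genes, and none had an unadjusted p under 0.05, against 9.25%. For 9 members the value was below 0, against 46.0% of all genes, and 0.0371% of all genes were called below 0. The values ran from -0.45 (Egr2, 95% confidence interval -1.67 to 0.77) to 0.07 (Fosb, -0.70 to 0.84). These intervals are wide, and that of Egr2 holds both 0 and a log2 difference of -1. Without ZT13 PBS replicate 1 they ran from -1.18 (Egr2, interval -2.08 to -0.29) to -0.09 (Npas4), and none was called, with a lowest adjusted p of 0.305 (Ier2, -0.62), against 0.0371% of all genes called below 0. At an unadjusted p under 0.05 there were then 7 members (Fos, Junb, Arc, Egr2, Nr4a1, Ier2 and Dusp1), all below 0, against 8.48% of all genes. This count too follows in part from how that mouse was chosen. The LPS differences at ZT1 and ZT13 rest on separate mice, while the interaction and the time comparisons reuse them.

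**Figure D3:**
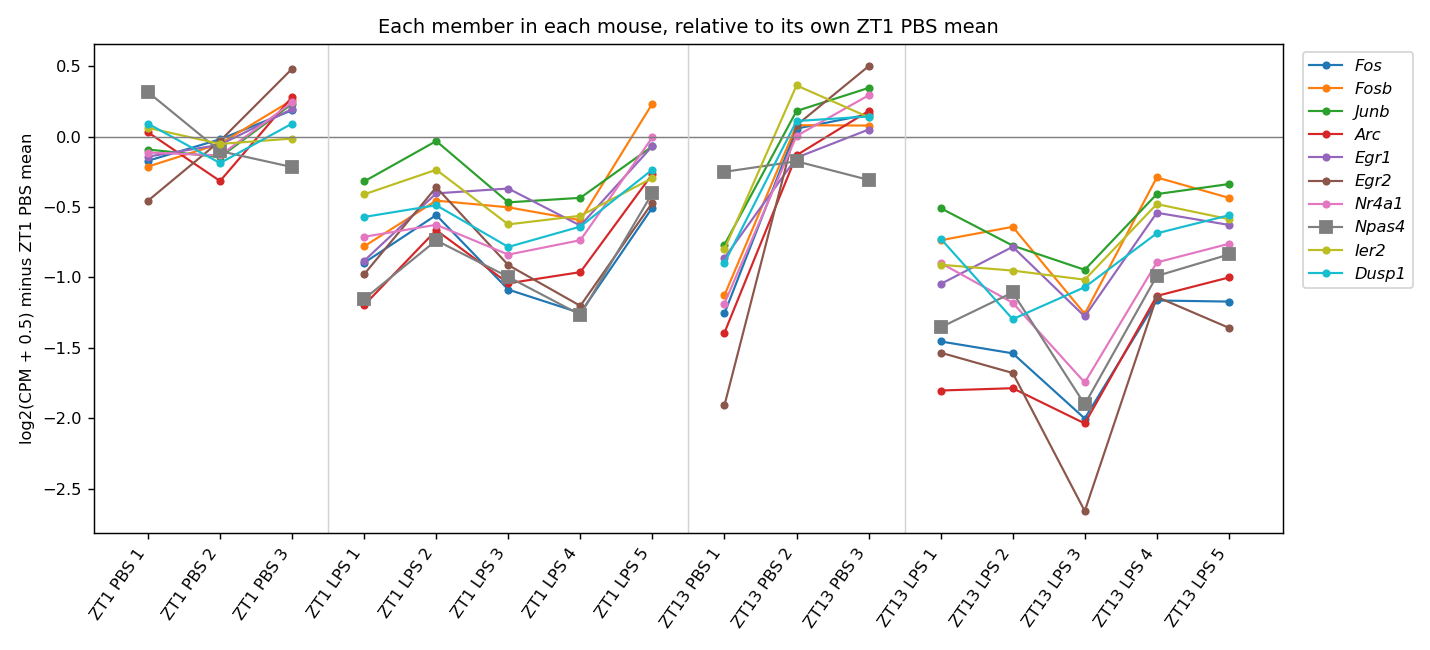
Each member in each of the 16 mice (horizontal axis), as log2(CPM + 0.5) minus its own mean in ZT1 PBS (vertical axis), with Npas4 as squares. Lines only join the values of a gene within a group, as the mice have no order. In ZT13 PBS replicate 1 the members average -1.04, near the ZT13 LPS mice, while Npas4 stays near the other controls.

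Mice of the same group differed from each other in these genes more than in the median gene. The median SD of log2 values between mice was 0.21 over the members and 0.093 over all genes in ZT1 PBS, 0.33 and 0.13 in ZT1 LPS, and 0.36 and 0.11 in ZT13 LPS. In ZT13 PBS it was 0.66 and 0.095, and 0.13 and 0.078 without replicate 1. The members moved together from mouse to mouse. After subtracting group means, each member correlated with the mean of the other 9 at r = 0.863 (Dusp1) to 0.968 (Fos) over the 16 mice. Npas4 was the exception at r = 0.499, and at 0.644 with the point of ZT13 PBS replicate 1 left out. The group means subtracted still included that mouse, so leaving out its point does not remove its influence. The points of a mouse share library, depth and scaling, and the values are a description.

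The genes whose mouse-to-mouse pattern was most like the mean of the members, by Pearson r over the 16 group-centred values, were Dusp6 (0.974), Slc25a25 (0.955), Egr4 (0.952), Nr4a3 (0.921), Trib1 (0.918), Spry4 (0.902), Mnt (0.895) and Midn (0.880). Of these 8, 4 stand in a list of 39 other immediate early genes. With the point of ZT13 PBS replicate 1 left out, but with group means that still included it, this r lay between 0.811 and 0.960.

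Levels between genes are compared per kilobase of annotated exon. In ZT1 PBS, Arc was highest (182 ± 37.1 CPM per kilobase, SD, n = 3), followed by Egr1 (127 ± 15.9), Junb (63.7 ± 9.39) and Nr4a1 (60.0 ± 9.18). Junb and Nr4a1 lay within their spread of each other. Fos (32.6 ± 4.13) and Dusp1 (20.5 ± 2.24) followed, then Npas4 (14.8 ± 3.02) and Ier2 (12.5 ± 0.521), which overlapped in their spread, and Egr2 (7.77 ± 2.58) and Fosb (5.03 ± 0.867). In ZT13 LPS (n = 5), Egr1 (71.2 ± 14.4) stood above Arc (63.6 ± 20.6), but they lay within their spread. Egr2 (2.39 ± 0.847) and Fosb (3.18 ± 0.770) were again the lowest.

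The list of other immediate early genes held genes that rose and genes that fell. Of 39, 37 were tested. At ZT1 6 rose and 8 fell, at ZT13 7 rose and 6 fell, and averaged over both times 7 rose and 13 fell, with a median of -0.09. Of all 18859 genes tested, 2089 rose and 972 fell at ZT1, 3629 and 1772 at ZT13, and 4626 and 2329 averaged over both times. Without ZT13 PBS replicate 1 the list counts at ZT13 were 7 and 15, against 3038 and 1484 of all genes. Those of the list that rose most at ZT13 with all mice are also known to be induced in inflammation, and whether it caused their rise was not tested. They were Maff, a small Maf transcription factor (1.45 at ZT1 and 1.80 at ZT13 on the log2 scale), Ier3 (0.77 and 1.25), Zfp36, which degrades cytokine mRNAs (0.74 and 0.93), and Ptgs2, the inducible cyclooxygenase (0.65 and 0.79). The ZT1 groups of Ptgs2 overlapped. At ZT13 without ZT13 PBS replicate 1, Ptgs2 was at 0.56 and Dusp2, named after its value was seen, at 0.76. Ccn1, a matrix protein, fell by 0.92 at ZT1.

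Close relatives of the members, named here after their values were seen, are given with and without ZT13 PBS replicate 1. Egr3 fell at ZT1 (-0.48, limma adjusted p = 0.0209). At ZT13 it was at -0.21 (adjusted p = 0.267) with that control and at -0.41 (adjusted p = 0.0140) without it. Egr4 was at -0.43 at ZT1 (adjusted p = 0.0538) and fell at ZT13 by 0.62 with that control and by 0.92 without it. Nr4a2 fell at both times (-0.27 and -0.29, and -0.44 at ZT13 without that control). Nr4a3 was at -0.47 at ZT1 and -0.62 at ZT13, neither past the threshold, and at -0.98 (adjusted p = 0.00230) at ZT13 without it. Jun and Jund, the main AP-1 partners, fell at ZT1 by 0.28 and 0.19. At ZT13 Jun was at -0.05 (adjusted p = 0.724) with that control and at -0.22 (adjusted p = 0.00671) without it, and Jund was at -0.04 and -0.07, past the threshold in neither.

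Activity-regulated genes that act later, at the synapse and as secreted peptides, mostly fell or did not pass. Of 19 tested, 7 fell and none rose at ZT1, 10 fell and 1 (Nptx1, 0.18, named after its value was seen) rose at ZT13, and 13 fell averaged over both times, with a median of -0.29. Among them were Vgf, a secreted neuropeptide precursor (-0.56 at ZT1 and -0.59 at ZT13), Sst, the somatostatin gene (-0.43 and -0.53), and Nptx2, a synaptic pentraxin (-0.69 at ZT13). Bdnf, a neurotrophin (-0.42 at ZT13), and Homer1, a postsynaptic scaffold gene (-0.42 at ZT1), were also lower. Of all genes, 5.15% were called lower at ZT1, 9.4% at ZT13 and 12.3% averaged over both times. The list counts at ZT13 were also 10 and 1 without ZT13 PBS replicate 1. That mouse deviated by -0.06 on average in this list, against -0.76 in the members and -0.35 in the other immediate early genes.

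Of 34 kinases, channels and factors that act upstream of the members, 7 rose and 1 fell at ZT1, where 16.2% of all genes were called. At ZT13, where 28.6% were called, 9 rose and 3 fell (7 and 3 without ZT13 PBS replicate 1), and the median averaged over both times was 0.02. Rps6ka1, a kinase of the ERK pathway, rose by 0.92 and 1.19, and Camkk2, a calcium-dependent kinase, fell by 0.41 and 0.47. In a list of 14 glucocorticoid-responsive genes, 11 rose at ZT1 and 10 at ZT13, against 2089 and 3629 of all 18859 genes tested. None of the list fell, and Fkbp5, a chaperone of the glucocorticoid receptor, was at 1.77 and 1.30. Without ZT13 PBS replicate 1 the ZT13 counts were 9 that rose and 2 (Per1 and Tsc22d3, named after their values were seen) that fell. Dusp1 is known to be induced by glucocorticoids as well as by activity, and its mean was lower after LPS at both times. Among the controls 7 of these 14 genes were higher at ZT13, against 57 of all 18859 genes tested. Without that mouse the counts were 9 and 40.

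**Figure D4:**
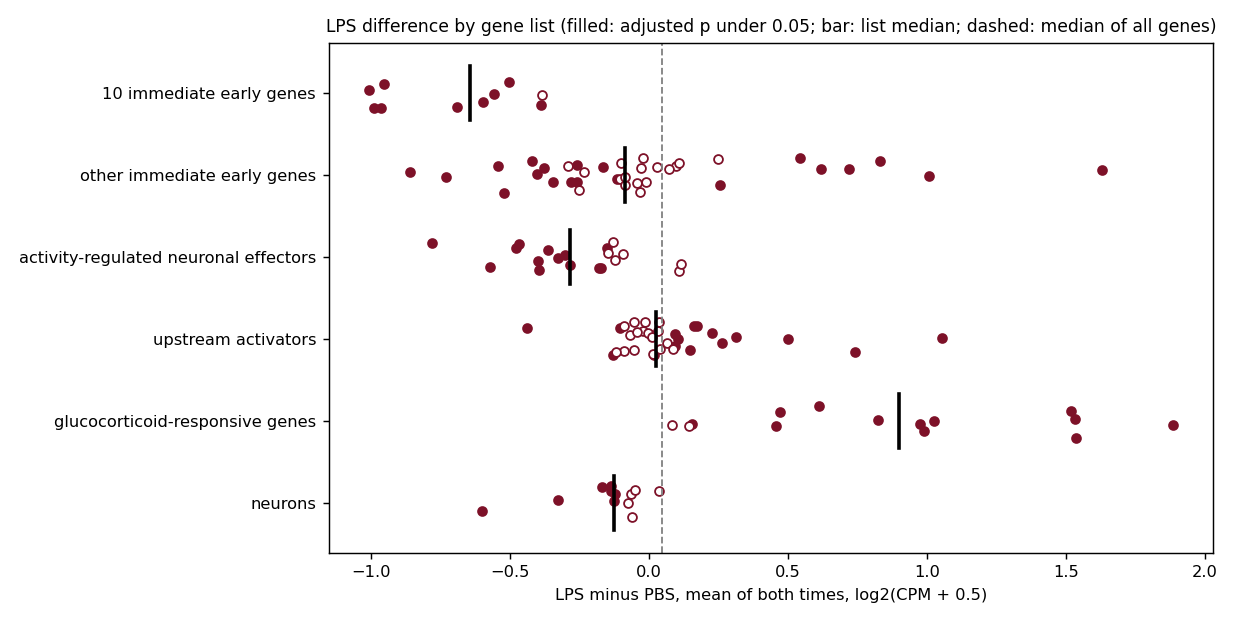
LPS minus PBS, averaged over both times, on the log2(CPM + 0.5) scale (horizontal axis) for each tested gene of 6 lists (rows). Filled points have an adjusted p under 0.05, black bars are list medians and the dashed line is the median of all genes (0.05). The members (median -0.64) are all below 0, while other immediate early genes and upstream activators lie on both sides of 0.

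Some markers of cell types moved with LPS as well. For comparison, of all 18859 genes tested, 2089 rose and 972 fell at ZT1, and 3629 rose and 1772 fell at ZT13. Of 12 neuron markers, 3 fell at ZT1 and 8 at ZT13 and none rose, with medians of -0.09 and -0.15. Tubb3, a neuronal tubulin gene, was at -0.55 and -0.65 and Map2, a dendritic protein gene, at -0.12 at ZT1. The summed neuron markers were 7592 to 7760 CPM in ZT1 PBS, 6959 to 7340 in ZT1 LPS, 7638 to 7974 in ZT13 PBS and 6839 to 7175 in ZT13 LPS, without overlap between PBS and LPS. Of 10 microglia markers 8 rose and 2 (Siglech, and P2ry12, named after its value was seen) fell at either time, and their sum was 227 to 250.1 CPM in the ZT1 PBS mice, 228 to 243 in ZT13 PBS, 342 to 548 in ZT1 LPS and 478 to 517 in ZT13 LPS. Of 11 endothelial markers 7 rose and 1 (Flt1, also named after its value was seen) fell at ZT1, and 11 rose at ZT13 (10 without ZT13 PBS replicate 1). Of 9 astrocyte markers 4 rose at ZT1, and 5 rose and 1 (Slc1a2, named after its value was seen) fell at ZT13. Of 9 mural markers 2 rose at ZT1 and 3 at ZT13 (2 without that mouse, where 3038 of all 18859 genes rose). Of 9 oligodendrocyte markers 2 fell and 1 (Mobp) rose at ZT1, and 5 fell and 1 (again Mobp) rose at ZT13. Leaving out that mouse changed no ZT13 count of the neuron, microglia, astrocyte, oligodendrocyte, neutrophil or erythrocyte markers. The 9 neutrophil markers, of which the 6 tested rose at ZT13 and 5 rose at ZT1, summed to 0.971 to 2.19 CPM in PBS mice and to 14.4 to 107 CPM in LPS mice. Among them, Mmp8, Retnlg, S100a8 and S100a9 were at no more than 0.394 CPM in any PBS mouse. They passed the filter through the LPS mice alone, so their rise was in part fixed by it. None of 5 tested erythrocyte markers was called. The part of these marker shifts in the lower levels of the members was not tested.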

How the data were processed

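RNA from the cortex of 16 mice was extracted with the PureLink kit and depleted of ribosomal RNA with KAPA RiboErase. Per the submitters' processing notes, bcl2fastq and DRAGEN 4.0.3-8 were used with GRCm38, and whether the counting used strand is not given in the sources used here. The authors deposited 1 table of CPM per gene and sample. It has 55774 lines, of which 287 repeat a gene and were removed. Depth was 20251840 to 29112758 reads, with the most frequent value above 0 in each column taken as 1 read. However, only 80.9% to 83.0% of low values were whole reads (within 0.01), so no count test was run. Depth covers counting error only, and the intervals printed are those of the fit and cover the spread between mice.

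Groups came from the sample titles, and each sample was taken as 1 mouse. Values were log2(CPM + 0.5), and genes with 1 CPM or more in 3 or more samples were tested with limma 3.58.1 (R 4.3.3, prior variance trended on intensity), on the groups of each comparison, or on all 16 samples for the interaction and the average. P-values were adjusted by Benjamini-Hochberg over all 18859 genes. Single members were compared by two-sided exact permutation tests. Figures were made with Python 3.11.15 and matplotlib 3.10.9.

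The members and lists were chosen with earlier results of these data known. Of each other list, genes named are the up to 4 called genes of largest fold change per comparison, and genes named outside that rule are said to be so. The 8 genes most like the members were chosen by r. Alternatives were pseudocounts of 0.1 and 1, no filter, at least 5 CPM, median-of-ratios scaling, quantile normalization, a single fit, sample weights, no trend, the replicate number as a block, and leaving out each mouse. Counts and named genes of the other lists without ZT13 PBS replicate 1 were added after seeing the data.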

Additional observations from a re-analysis of the deposited data

Results flagged for a closer look

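ZT1 LPS replicate 5 lay far above the other 4 mice of its group for 2 members. Its Fosb level was 36.7 CPM, with a gap to the next mouse of 0.753 of the group's range, and its Nr4a1 level was 208 CPM, with a gap of 0.798. The critical value for 5 samples is 0.71, and chance passes it in about 1 in 20 groups. In all, 20 pairs of member and LPS group were examined. The mouse was the highest of its group in 7 of the 10 members.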

How the results depend on the processing

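The count of members called moved with the fit. At ZT1, where 8 were called, it was 0 with no filter on low values, 2 in a single fit of all 16 samples and 5 with no intensity trend. At ZT13, where 7 were called, it was 1 with no filter and 2 with no intensity trend. Leaving out 1 mouse at a time gave 4 to 9 members at ZT1, 2 to 10 at ZT13, 8 to 10 averaged over both times, and 0 for the LPS groups against each other, the PBS groups against each other and the interaction. Over all genes, leaving out 1 mouse gave 468 to 1294 called lower at ZT1, 1243 to 1869 at ZT13 and 1975 to 2490 averaged over both times. Replicate numbers are shared between groups by number only: the correlations of same-numbered samples ranged from -0.199 to 0.328 over 20 pairs. With the replicate block the member counts were 9 at ZT1, 9 at ZT13, 10 averaged over both times and 0 in the other comparisons. Over all genes, the block gave 949 called lower at ZT1, 1507 at ZT13 and 2419 averaged over both times. No LPS difference changed sign under any setting. Leaving out 1 mouse turned the sign of the interaction for 7 members, with ranges of -0.75 to 0.036 for Arc, -0.45 to 0.068 for Dusp1, -0.34 to 0.12 for Egr1, -1.18 to 0.023 for Egr2, -0.33 to 0.27 for Fosb, -0.24 to 0.082 for Npas4 and -0.66 to 0.077 for Nr4a1, and of the PBS time difference for 8, with ranges of -0.76 to 0.026 for Arc, -0.39 to 0.13 for Dusp1, -0.91 to 0.29 for Egr2, -0.60 to 0.11 for Fos, -0.52 to 0.081 for Fosb, -0.33 to 0.25 for Ier2, -0.29 to 0.27 for Junb and -0.59 to 0.15 for Nr4a1. Over all genes, 3061 were called at ZT1, 1605 with no filter, 4048 in a single fit and 2168 with no intensity trend. At ZT13 5401 were called, 4332 with no filter and 4629 with no intensity trend. Between the LPS groups 4 were called, 122 in a single fit, 225 with sample weights, 1 with no filter, 0 with no intensity trend, and 0 to 345 when 1 mouse was left out, the highest without ZT1 LPS replicate 1. Between the PBS groups 98 were called, 65 with no filter, 199 under quantile normalization, 43 in a single fit and 3 with no intensity trend. In the interaction 30 were called, 124 with sample weights, 12 with no filter, 11 with no intensity trend, and 7 to 104 when 1 mouse was left out, the highest again without ZT1 LPS replicate 1. The causes of these moves were not tested. With 3 PBS mice per time, an exact permutation p against LPS cannot go below 0.0357, and between the PBS groups not below 0.1.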
